A study of Mus musculus with 26 samples.

Results

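The 54 genes described here encode proteins of the cytosolic ribosome, out of 26180 mouse genes with a RefSeq start site. They were chosen by gene name as a class of active promoters expected to lack H3K27me3: 30 encode proteins of the large subunit, 21 encode proteins of the small subunit and 3 (Rplp0, Rplp1 and Rplp2) encode the proteins of the stalk of the large subunit. For each gene and each table of regions, the region with most overlap with the 1.5 kb either side of a start site was taken. No measured value entered this choice. The members are genes and not replicates, so cells and ChIPs were compared over libraries.

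Each cytosolic ribosome holds nearly all of these proteins, and their genes are among the most strongly transcribed of every growing cell. Their promoters usually lie in CpG islands, lack a TATA box and start transcription within a stretch of pyrimidines. H3K4me3 marks nucleosomes beside active start sites, H3K27me3 is written by the Polycomb complex PRC2 at silent or poised genes, and a bivalent nucleosome carries both marks. In embryonic stem cells bivalent chromatin is best known at the promoters of developmental regulators.

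In a ChIP-reChIP, chromatin pulled down with a first antibody is released and pulled down again with a second. K4-K27 names the order H3K4me3 then H3K27me3, and K27-K4 names the reverse. In-line totals were taken from the material of the first ChIP, and an IgG–IgG reChIP served as control. The study set these against each other to read co-occurrence of both marks from low cell numbers. At the promoters of ribosomal protein genes the comparison answers how much signal each order leaves where H3K4me3 is abundant and H3K27me3 is not expected.

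All cells were mouse embryonic stem cells grown in serum and LIF without feeders. The E14 line gave 9 libraries, replicates 1 and 2 of both in-line totals and both reChIP orders and replicate 1 of IgG–IgG. Clones of E14 background gave 17 libraries: WT clones 57 and 58, and DKO clones 43 and 53, which lack both Dppa2 and Dppa4, were profiled with the same 4 ChIPs, and IgG–IgG was made in WT clone 57 alone. Each clone is 1 line, so clone and genotype effects rest on 2 lines per genotype. E14 replicates 1 and 2 were sequenced in separate batches and all clone libraries in another, so the E14 line and the clones differ in batch as well as in cells, and these cannot be told apart. By the study's methods, replicates were biological and came from separate passages. The p-values rest on 2 libraries per group, which in WT and DKO come from 2 clones. The limma fits drew each region's variance towards a trend over all regions, with 43940 degrees of freedom at every region in the E14 order. A member's standard error and p-value therefore do not measure its own spread alone.

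Values are log2 RPM per 1 kb of region, without subtraction of IgG–IgG, from 6741245 to 47903462 reads per library (median 16875028). Reads spread evenly over the known bases of the genome would give -1.40 on this scale. The total H3K27me3 libraries put the fewest reads on the members, with a median per member between 14 and 47.5 in the clones, and 1 read lies behind the value of Rps23 in WT clone 57. Values of replicates correlated across regions between 0.509 (E14 total H3K4me3) and 0.930 (DKO total H3K4me3). Pou5f1 and Nanog, which mark embryonic stem cells, carried H3K4me3 in all groups. Vim and Thy1, taken as markers of other cells, did too (total H3K4me3 in WT 57: Nanog 2.67, Vim 2.82, Thy1 2.56). All were read in regions listed for total H3K4me3, so this does not check cell identity. Regions at the start sites of Dppa2 and Dppa4 kept H3K4me3 in the DKO clones, and where the deletions lie is not given in the sources used here, so these regions check nothing about the genotype.

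The promoter sequences show the kind of DNA on which these values lie. Of the 54 members, 44 matched the RefSeq promoter table (GRCm38.p6, 250 bases before and 50 after the start). Rpl3, Rpl7, Rpl8, Rpl17, Rpl30, Rpl32, Rplp1, Rps14, Rps20 and Rps29 are named only. The 250 bases before the start are printed for the matched members with the lowest (Rps25 and Rpl34) and the highest (Rpl12 and Rpl10a) mean K27-K4 value over the 4 clones, with capitals for the core recognised by ETS family factors, CGGAAG or its complement CTTCCG. They lie at chr9:44407464-44407713 (plus strand) for Rps25, chr3:130730399-130730648 (minus strand) for Rpl34, chr2:32961462-32961711 (plus strand) for Rpl12 and chr17:28328221-28328470 (plus strand) for Rpl10a.
Rps25: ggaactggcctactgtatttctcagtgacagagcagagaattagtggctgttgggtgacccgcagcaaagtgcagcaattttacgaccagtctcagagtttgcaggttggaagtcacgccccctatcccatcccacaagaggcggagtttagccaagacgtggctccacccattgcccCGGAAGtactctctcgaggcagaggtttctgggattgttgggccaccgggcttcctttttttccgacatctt
Rpl34: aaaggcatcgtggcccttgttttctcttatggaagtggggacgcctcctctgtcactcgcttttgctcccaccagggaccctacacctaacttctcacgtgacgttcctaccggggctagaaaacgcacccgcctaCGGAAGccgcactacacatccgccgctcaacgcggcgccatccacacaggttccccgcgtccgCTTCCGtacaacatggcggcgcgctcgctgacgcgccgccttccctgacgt
Rpl12: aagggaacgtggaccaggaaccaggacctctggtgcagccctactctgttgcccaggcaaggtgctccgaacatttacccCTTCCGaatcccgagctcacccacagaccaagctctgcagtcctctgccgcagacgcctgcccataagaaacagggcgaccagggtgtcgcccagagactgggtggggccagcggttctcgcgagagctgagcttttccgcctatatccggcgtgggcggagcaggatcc
Rpl10a: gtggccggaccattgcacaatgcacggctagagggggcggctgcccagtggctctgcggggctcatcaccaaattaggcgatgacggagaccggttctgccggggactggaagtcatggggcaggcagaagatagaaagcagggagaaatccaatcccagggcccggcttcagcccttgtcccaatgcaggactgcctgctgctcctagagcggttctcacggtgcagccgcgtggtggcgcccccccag

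The member promoters were rich in CpG. They held a median of 21.5 CpG in 300 bases, against 7 in all 27025 promoters and 21 in the 12232 promoters of genes with a WT total H3K4me3 region. Their median observed-to-expected CpG ratio was 0.906, against 0.754 in promoters with a WT total H3K4me3 region, and 97.7% against 82.8% held 10 or more CpG. The ETS core, searched on both strands, was in 29 of the 44 (65.9%), against 17.2% of all promoters, 29.5% of promoters with a WT total H3K4me3 region and 5.26% of promoters of developmental regulators. TATAAA was in 6.82% of member promoters, 6.85% of promoters with a WT total H3K4me3 region and 14.2% of all. In the same order the YY1 core AAGATGG was in 11.4%, 6.68% and 6.48%, CCAAT in 31.8%, 38.4% and 37.9%, and the E-box CACGTG in 11.4%, 10.3% and 7.24%.

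ChIP values differed little between members with and without the ETS core. The median K27-K4 value over the clones was -0.18 in the 29 with it and -0.03 in the 15 without, the K4-K27 values were 2.35 and 2.34, and the K27-K4 values in E14 cells were 1.42 and 1.57. The ranges of the clone K27-K4 values overlapped over nearly their whole length, from -0.69 to 0.51 with the core and from -0.52 to 0.59 without.

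Which tables hold a region at these promoters differed sharply between the E14 line and the clones. Total H3K4me3 regions lay at 50 of 54 members in E14 cells and at 54 of 54 in WT and DKO clones, against 53.2%, 60.2% and 56.1% of all genes. Rpl14, Rpl37, Rps6 and Rpsa were the 4 without an E14 total H3K4me3 region. Total H3K27me3 regions lay at 0 members in E14 cells and at 1 in WT and 1 in DKO clones, where 12.1%, 15.8% and 17.6% of all genes had one. Rpl7, a large subunit protein, was that 1 member in both genotypes.

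The reChIP tables went opposite ways. In the clones all 54 members had a K4-K27 region (59.4% of all genes in WT, 57.8% in DKO), while 4 members in WT (Rpl7, Rpl38, Rplp1 and Rps24) and 1 in DKO (Rpl7) had a K27-K4 region (33.7% and 32.1% of all genes). In E14 cells all 54 members had a K27-K4 region (66.2% of all genes) and 36 had a K4-K27 region (58.7%). Members without an E14 K4-K27 region included Rplp0, Rplp1 and Rplp2 of the stalk, Rps6, whose protein is phosphorylated downstream of mTOR, and Rpsa, also known as the laminin receptor. The 36 E14 K4-K27 regions of members had the same start and end as their K27-K4 regions, as did 89.1% of all regions of the E14 K4-K27 table, against 1.25% in WT and 0.705% in DKO. Presence in both E14 tables is therefore not a pair of separate calls, and the sources used here do not say how these tables came to share regions.

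**Figure D1:**
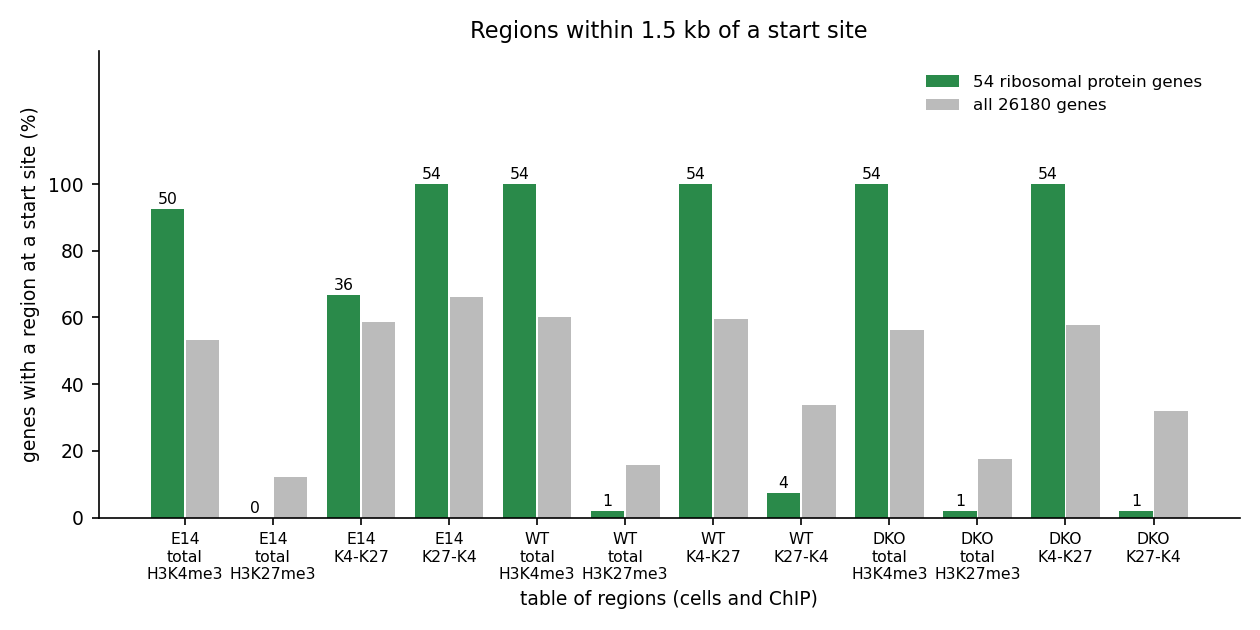
Share of genes with a region within 1.5 kb of a start site in each of the 12 tables (y axis, percent; x axis, cells and ChIP of the table), for the 54 ribosomal protein genes (green, with the number of genes above the bar) and all 26180 genes (grey). Members had K4-K27 regions at 54 of 54 genes in both clone genotypes and K27-K4 regions at 4 and 1, while in E14 cells 54 had K27-K4 and 36 had K4-K27 regions.

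Member regions were wide, with a median of 5325 bp in the E14 total H3K4me3 table, against 1950 bp for all its regions, and 5025 bp against 1650 bp in the WT total H3K4me3 table. Some E14 reChIP regions reach over neighbouring genes. The region of Rps15, a small subunit protein, is 45600 bp wide and also holds start sites of Apc2, Pcsk4 and Reep6, and that of Rpl18, a large subunit protein, is 25050 bp wide and also holds those of Dbp and Sphk2. The regions of the total H3K4me3 tables were therefore used for the comparisons below, 50 members in E14 and 54 in the clones.

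H3K4me3 was high and H3K27me3 low at these promoters in every library. In E14 cells the members' median total H3K4me3 was 1.09 in replicate 1 and 1.64 in replicate 2, and their median total H3K27me3 was -1.61 and -1.93. In the clones the medians of total H3K4me3 were 3.18 and 1.90 in WT 57 and 58 and 2.92 and 2.40 in DKO 43 and 53. Total H3K27me3 stood at -2.18, -1.82, -2.73 and -1.92 in the same order, below the level of evenly spread reads. In E14 cells total H3K4me3 was called higher than total H3K27me3 at 50 of 50 members (81.4% of 21970 regions), with a median difference of 3.10 against 2.25 over all regions (limma with Benjamini-Hochberg adjustment over all regions, a call being a log2 difference above 1 and an adjusted p under 0.05). These regions were listed for total H3K4me3, so the direction was largely fixed by the choice of regions. In the regions of the E14 K27-K4 table, 53 of 54 members and 40.2% of regions were called higher. With median centring 16 of 50 members were called (11.7% of regions, with 24.5% lower), with a median of 0.81. The differences ran from 2.59 to 4.05, the highest being Rpl24 (4.05, SE 0.68, adjusted p = 1.04e-08), a large subunit protein mutated in the Belly spot and tail mouse.

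K4-K27 at the members was higher in the clones than in E14 cells, more so against E14 replicate 1 than replicate 2. In E14 replicate 1 the member K4-K27 values ran from -2.48 to 1.00 with a median of -1.16, and in replicate 2 from 0.06 to 1.82 with a median of 0.77. In the clones the medians were 2.54 (WT 57), 1.99 (WT 58), 2.71 (DKO 43) and 2.19 (DKO 53), and the ranges were 2.00 to 3.51, 0.91 to 2.81, 2.08 to 3.33 and 0.70 to 2.82. The values of WT 57 and DKO 43 lay wholly above both E14 ranges, and those of WT 58 and DKO 53 overlapped with them at their low end.

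K27-K4 showed the reverse. Its member values in E14 cells ran from -0.19 to 1.87 in replicate 1 (median 0.95) and from 1.35 to 3.25 in replicate 2 (median 2.02). In WT clones 57 and 58 the medians were -0.08 and -0.06, with ranges of -1.42 to 2.06 and -0.81 to 1.65. In DKO clones 43 and 53 they were -0.34 and 0.05, with ranges of -1.18 to 1.83 and -1.42 to 1.47. The upper end of all 4 clone ranges is Rpl7. Over all E14 total H3K4me3 regions the K27-K4 medians were 0.81 and 1.86 in E14 replicates 1 and 2. In WT 57, WT 58, DKO 43 and DKO 53 they were 0.10, 0.07, 0.00 and 0.22, so the fall was not particular to the members.

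Against the IgG–IgG control, K4-K27 was raised at every member of the clones and K27-K4 was not. K4-K27 exceeded IgG–IgG at 54 of 54 members in each clone, by a median of 2.24 (WT 57), 1.59 (WT 58), 2.37 (DKO 43) and 1.74 (DKO 53). It did so at 93.8%, 90.4%, 90.8% and 92.0% of all regions, by medians of 2.57, 1.97, 2.43 and 2.04, so the members' count is near that of all regions. K27-K4 lay below IgG–IgG in the median, by -0.50, -0.37, -0.70 and -0.34, and exceeded it at 13, 8, 6 and 13 of the 54 members, against 68.1%, 68.6%, 70.6% and 74.9% of all regions. In E14 cells K27-K4 exceeded IgG–IgG at 50 of 50 members in both replicates (91.2% and 94.7% of all regions), by medians of 1.34 and 2.35, so this count too is near that of all regions. K4-K27 exceeded it at 5 of 50 in replicate 1 (median -0.82; 55.9% of regions) and at 50 of 50 in replicate 2 (median 1.03; 95.0% of regions). There is 1 IgG–IgG library per cell set, so these differences have no replicate check on the control side.

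The 2 orders were then compared directly within each cell set. In the clones the lowest of the 4 K4-K27 values lay above the highest of the 4 K27-K4 values at 54 of 54 members, as it did at 36.0% of 31935 regions. In E14 cells the lower K27-K4 value lay above the higher K4-K27 value at 38 of 50 members, as it did at 16.9% of 21970 regions. Taken within a replicate or clone, K27-K4 exceeded K4-K27 at 50 of 50 members in both E14 replicates, near the 92.9% and 88.2% of all regions, and at 0 of 54 in each of the 4 clones, against 25.9%, 27.5%, 26.7% and 31.7% of all regions in WT 57, WT 58, DKO 43 and DKO 53.

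In WT clones K27-K4 was called lower than K4-K27 at 53 of 54 members (26.5% of 31935 regions), with a median difference of -2.30 against -0.91 over all regions. In DKO clones it was called lower at 54 of 54 (36% of regions), with a median of -2.52 against -0.77. Other cytosolic ribosomal protein genes did likewise, lower at 30 of 33 in WT and 30 of 33 in DKO, and so did mitochondrial ribosomal protein genes (71 and 73 of 76) and translation factor genes (42 and 43 of 44). Of the 41 developmental regulators with a region, 0 were called in WT and 1 was called lower and 1 higher in DKO, with medians of 0.24 and 0.14. Without K27-K4 of WT clone 57, 17 members were called in WT (13.6% of regions), and without that of clone 58, 20 were (13.7%). With every library centred on its median region, 30 were called lower in WT (14.3% of regions lower and 17.1% higher) with a median of -1.08, and 45 in DKO (17.5% lower and 24.8% higher) with a median of -1.32.

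Rps25 had the largest fall in WT. Its K4-K27 values were 2.86 and 2.21 in WT clones 57 and 58 and 2.99 and 2.01 in DKO clones 43 and 53, and its K27-K4 values were -0.95, -0.65, -0.53 and -0.63. Rps25 protein, of the small subunit, is known for its part in initiation from viral internal ribosome entry sites, and its promoter printed above holds 9 CpG and 1 ETS core in 250 bases. The difference was -3.33 (SE 0.62, adjusted p = 2.44e-06) in WT and -3.08 (SE 0.48, adjusted p = 4.05e-09) in DKO by limma with Benjamini-Hochberg adjustment. Rps21, a small subunit protein, fell by 3.32 in WT (SE 0.60, adjusted p = 1.80e-06), from 3.03 and 2.19 to -1.17 and -0.24. Rpl19, a large subunit protein, fell by 3.03 in WT (SE 0.57, adjusted p = 3.83e-06), from 2.93 and 2.61 to -0.73 and 0.21. Rpl34 of the large subunit fell by 2.98 in WT (SE 0.65, adjusted p = 5.94e-05), from 2.31 and 1.96 to -1.42 and -0.26. Rps15 fell by 2.93 in WT (SE 0.57, adjusted p = 6.73e-06), from 3.16 and 2.35 to 0.36 and -0.71. In all 5 genes the groups of libraries do not overlap.

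In DKO the largest fall was at Rpl30, a large subunit protein, with K4-K27 values of 2.49 and 1.73 in clones 43 and 53 and K27-K4 values of -1.18 and -1.42 (difference -3.41, SE 0.53, adjusted p = 3.01e-09). Rps23, whose protein lines the decoding centre, fell by 3.40 in DKO (SE 0.48, adjusted p = 1.48e-10), from 3.08 and 2.20 to -0.46 and -1.06. Rps13 fell by 3.24 and Rps29 by 3.19. These members lie at the low end of a continuous spread, since the differences ran from -3.33 to -1.30 in WT and from -3.41 to -1.43 in DKO.

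Rplp0, the scaffold of the stalk and a common reference gene, fell by 2.34 in WT (SE 0.59, adjusted p = 0.000576) and by 2.13 in DKO (SE 0.49, adjusted p = 6.99e-05). Rpl5 and Rpl11, which bind Mdm2 when ribosome assembly is disturbed, fell by 2.65 and 1.89 in WT and by 2.85 and 2.47 in DKO. Rpl3, which lies by the peptidyl transferase centre, fell by 2.06 and 2.52. Rpl38, mutated in the Tail short mouse, fell by 2.21 and 2.52, and Rps19, mutated in Diamond-Blackfan anaemia, fell by 2.40 and 2.73. Rps6 fell by 1.94 and 2.52, and Rpsa by 2.45 and 2.82, in WT and DKO.

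**Figure D2:**
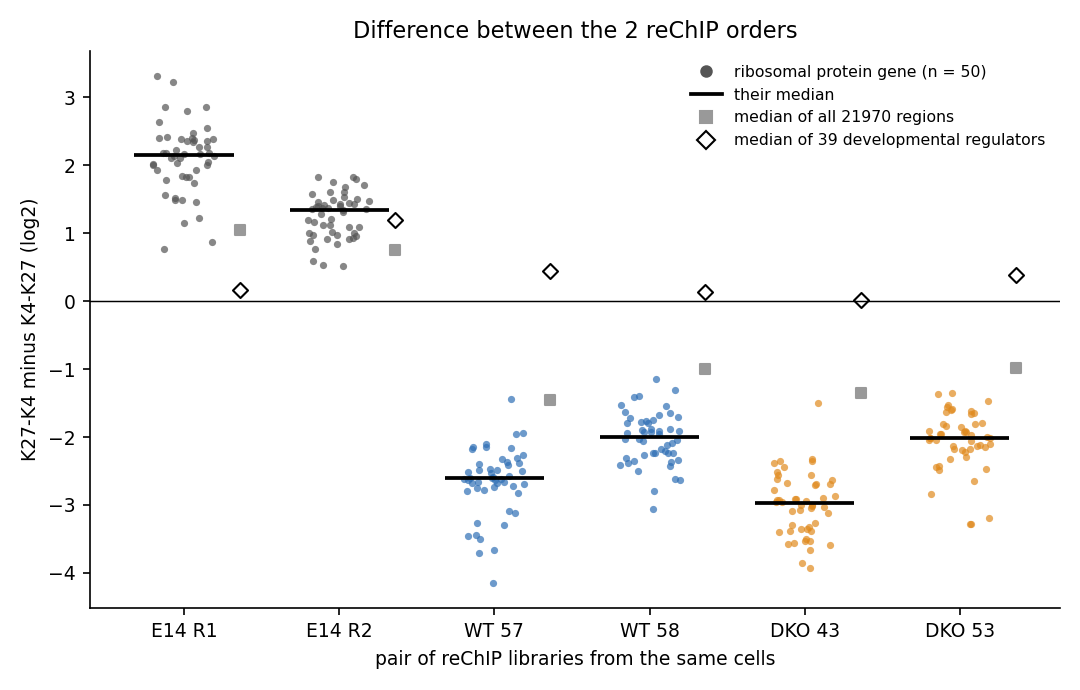
Difference K27-K4 minus K4-K27 (y axis, log2) in each replicate or clone (x axis), for the members and for reference sets of regions. Members had positive differences in E14 replicates 1 and 2 (medians 2.15 and 1.35, 50 of 50 above 0) and negative ones in WT and DKO clones (medians -1.99 to -2.97 in the 50 members of the same regions).

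In E14 cells K27-K4 exceeded K4-K27 by a median of 1.68 at the 50 members and by 0.90 over all regions, but 0 members and 0% of 21970 regions were called. At an unadjusted p under 0.05, 0 members and 0.0865% of regions passed, and the lowest adjusted p of a member was 0.75 (limma with Benjamini-Hochberg adjustment). The spread between the replicates was large, with a standard error, pooled over regions, of 1.13 to 1.41 for a member. With 1 library left out the member median ranged from 0.73 to 2.67. With the replicate, which is also the sequencing batch, as a block, 36 of 50 members were called higher (14.8% of regions).

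Rps18, a small subunit protein, had the largest E14 difference. Its K4-K27 values were -1.65 and 0.59 in replicates 1 and 2, and its K27-K4 values were 1.21 and 2.35, a difference of 2.31 (SE 1.35, adjusted p = 0.75). Rpl30 had the smallest, with K4-K27 values of -0.96 and 0.84 and K27-K4 values of -0.19 and 1.35, which overlap between orders (0.64, SE 1.39, adjusted p = 0.76). Rps19 had values of -1.16 and 0.79 for K4-K27 and 1.39 and 2.32 for K27-K4, so its orders did not overlap.

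Each E14 order was set against the in-line total of its own first antibody. K27-K4 was called higher than total H3K27me3 at 50 of 50 members (80.6% of regions), by a median of 3.23 against 2.78 over all regions. These regions were listed for total H3K4me3, which favoured K27-K4 here and total H3K4me3 in the K4-K27 comparison below. Of the developmental regulators, 38 of 39 were called higher as well. Among the members Rpl7 stood highest with a difference of 3.98 (SE 0.83, adjusted p = 2.80e-05), and Rplp0 had 3.04 (SE 0.76, adjusted p = 0.000271). Without replicate 1 or replicate 2 of total H3K27me3 no member was called, and with median centring 8 were (11.5% of regions), with a median of 0.62. K4-K27 against total H3K4me3 had 0 of 50 members called (10.2% of regions, 2243 higher and 5 lower) and 1 at an unadjusted p under 0.05, with a median of -1.58 against -0.79 over all regions. The developmental regulators had a median of 2.27 here. The 2243 higher calls fell to 0 without replicate 1 or replicate 2 of total H3K4me3, without trend and robust estimation, and in the regions of either E14 reChIP table. Without K4-K27 replicate 2, 49 members were called lower (54.5% of regions), and with median centring 17 were (7.01% of regions, with 24.2% higher).

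Against the other total, K4-K27 exceeded total H3K27me3 at 40 and 50 of 50 members in E14 replicates 1 and 2 (medians 0.59 and 2.66). Over all regions 77.1% and 96.5% did so, with medians of 0.93 and 2.69. K27-K4 differed from total H3K4me3 by medians of -0.11 and 0.40 at the members and of -0.025 and 0.45 over all regions. Rpl28 had the lowest K4-K27 relative to total H3K4me3 in E14 cells. Its total H3K4me3 was 1.19 and 1.69 and its K4-K27 was -2.43 and 0.82 in replicates 1 and 2, a difference of -2.25 (SE 1.14, adjusted p = 0.33). Rpl7 was the only member with a positive difference, 0.22 (SE 0.83, adjusted p = 0.87), with total H3K4me3 at 1.02 and 1.35 and K4-K27 at 1.00 and 1.82. In the clones, K4-K27 minus total H3K4me3 had member medians of -0.62 and 0.11 in WT 57 and 58 and -0.20 and -0.25 in DKO 43 and 53, against -2.19 and -0.91 in the E14 replicates.

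A comparison within each library, which no scaling between libraries can move, set the members' median against that of the 39 developmental regulators in the E14 total H3K4me3 regions. In E14 K4-K27 the difference of members minus developmental regulators was -4.06 and -2.73 in replicates 1 and 2, and in K27-K4 it was -2.15 and -2.62. In replicate 2 the orders were thus nearly alike on this measure, and in replicate 1 they were not. In the clones the K4-K27 differences were -1.18 and -1.30 (WT 57 and 58) and -0.60 and -0.64 (DKO 43 and 53), and the K27-K4 differences were -4.35, -3.54, -3.74 and -3.09. Among the reChIP libraries in these regions, members lay nearest to developmental regulators in K4-K27 of the clones. In the wider regions of the E14 K27-K4 table, with 53 developmental regulators, the K4-K27 differences were 0.06, -0.25, 0.45 and 0.49 in WT 57, WT 58, DKO 43 and DKO 53, so their sign turned in 3 clones, and the K27-K4 differences were -3.13, -2.45, -2.71 and -2.06. There the E14 differences were -3.47 and -1.67 for K4-K27 and -1.12 and -1.38 for K27-K4. Set against all E14 total H3K4me3 regions instead, members differed by -0.75 and -0.42 in E14 K4-K27 and by 0.14 and 0.16 in E14 K27-K4. In WT 57, WT 58, DKO 43 and DKO 53 they differed by 0.43, 0.55, 0.59 and 0.48 in K4-K27. In K27-K4 they differed by -0.19, -0.16, -0.33 and -0.14.

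**Figure D3:**
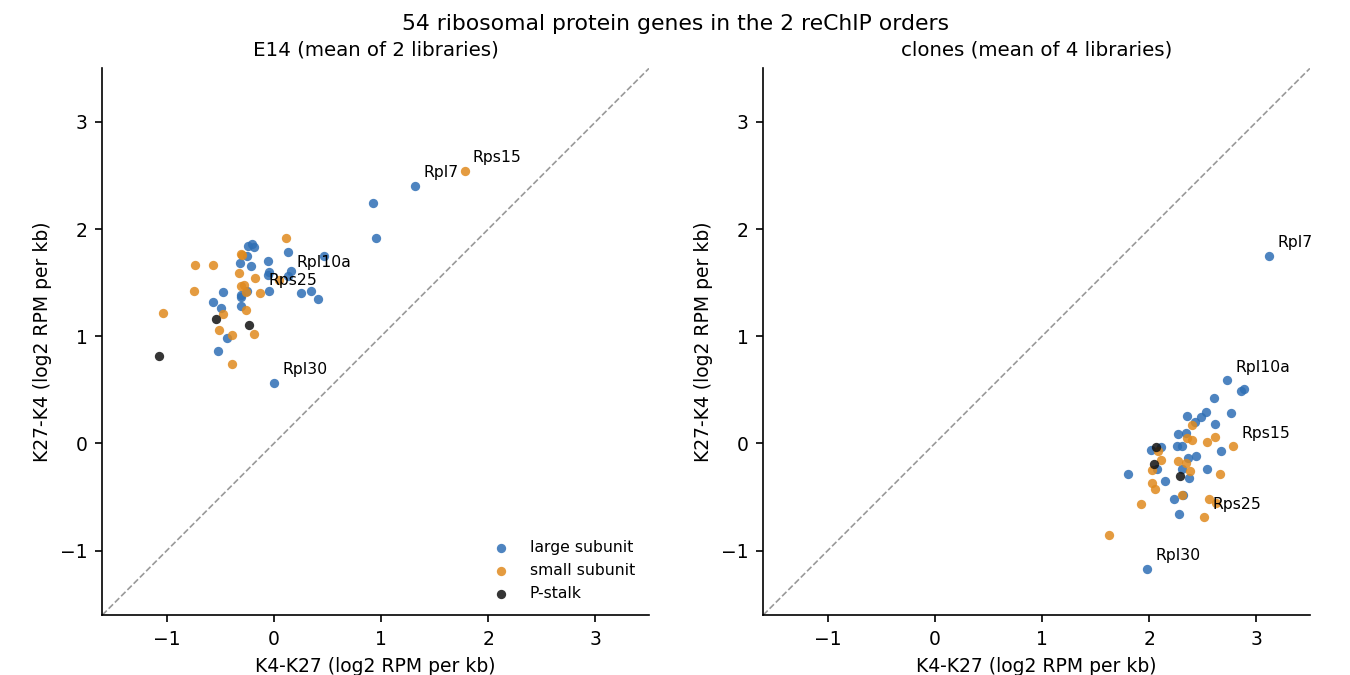
Mean K27-K4 value (y axis) against mean K4-K27 value (x axis) of each member (points, log2 RPM per kb), over the 2 E14 replicates and over the 4 clones in separate panels. In E14 cells, with the regions of the E14 K27-K4 table, Rps15 stands highest at 1.78 and 2.54, and in the clones Rpl7 stands apart at 3.12 and 1.75.

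The opposite directions of the orders in WT clones and the E14 line were compared as a difference of differences, a comparison chosen after the data were seen. It was called lower in WT clones at 48 of 50 members (21% of 21970 regions), with a median of -3.99 against -2.15 over all regions. Rps21 (-4.81, SE 1.38) and Rps25 (-4.81, SE 1.40) had the largest differences, both with an adjusted p of 0.0242 by limma with Benjamini-Hochberg adjustment, and Rplp0 had -4.33 (SE 1.34, adjusted p = 0.025). Translation factor genes had a median of -4.12 with 37 of 42 called, the other cytosolic ribosomal protein genes -3.81 with 23 of 30, mitochondrial ribosomal protein genes -3.64 with 48 of 75, and developmental regulators -0.41 with 0 of 39. With median centring 17 members were called (5.17% of regions; median -1.31), and none was called without E14 K4-K27 replicate 1, without E14 K27-K4 replicate 2 or without any 1 of the 4 WT reChIP libraries. Cells and sequencing batch cannot be told apart in this comparison.

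No member was called between DKO and WT clones in any ChIP, though with 2 clones per genotype the errors leave room for sizeable differences. Total H3K4me3 was called at 0 of 54 members in DKO against WT (2.6% of 31935 regions, 0 higher and 829 lower). Its median was 0.12 against -0.01 over all regions, with standard errors of 0.76 to 0.93. The regions were listed for total H3K4me3 in WT, which favours lower calls in DKO over all regions. Total H3K27me3 was called at 0 (1.55% of regions), with a median of -0.39 against 0.08 and standard errors of 0.48 to 1.03. K4-K27 was called at 0 (3.32%, 93 regions higher and 968 lower), with a median of 0.14 against 0.00. K27-K4 was called at 0 (6.59%, 347 regions higher and 1756 lower), with a median of -0.09 against 0.07. The interaction of genotype and order was called at 0 (0.0251%), with a median of -0.21 against 0.11. In all 5 comparisons 0 members passed at an unadjusted p under 0.05. With 1 library left out, the median ranged from -0.54 to 0.77 in total H3K4me3 and from -0.73 to 0.048 in total H3K27me3. In K4-K27 it ranged from -0.20 to 0.42, so the sign of these medians was not stable.

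The extremes show how far single members went. Rpl24 had the highest K4-K27 difference (0.83, SE 0.59, adjusted p = 0.75) and Rps20, a small subunit protein, the lowest (-0.47, SE 0.59, adjusted p = 0.97). Rps20 was lower in DKO clone 53 than elsewhere, with total H3K4me3 values of 2.61, 1.58, 2.38 and 0.95 in WT 57, WT 58, DKO 43 and DKO 53, and its K4-K27 value there, 0.70, was the lowest of any member. In K27-K4 the differences ran from -0.71 (Rps13, SE 0.59, adjusted p = 0.67) to 0.50 (Rpl22, SE 0.49, adjusted p = 0.73). For scale, the promoter of Csf1, which encodes a macrophage growth factor, had K4-K27 values of 3.74 and 2.93 in WT and -0.56 and 0.14 in DKO.

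Rpl7 was the exception among the members. In the WT total H3K4me3 regions its K27-K4 values were 2.06 and 1.65 in WT 57 and 58 and 1.83 and 1.47 in DKO 43 and 53, where the next highest mean over the clones was 0.59 (Rpl10a). Its total H3K27me3 values were -0.58, -0.95, -0.80 and -0.57, above the member medians and above the level of evenly spread reads. Its K4-K27 values were 3.51, 2.81, 3.33 and 2.82, so K27-K4 was lower in each clone, and it was the 1 member not called in WT (-1.30, SE 0.59, adjusted p = 0.0894). With the clone as a block, 54 of 54 members were called in WT (29.3% of regions), Rpl7 included.

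A neighbouring gene lies beside the Rpl7 regions. The region of the WT total H3K27me3 table is chr1:16105801-16107000 (mm10), it overlaps the window at the Rpl7 start site by 133 bp, and it holds the start site of Rdh10, a retinol dehydrogenase of retinoic acid synthesis. The WT K27-K4 region, chr1:16104751-16108050, overlaps the window by 1183 bp and also holds the Rdh10 start. In the WT total H3K27me3 region the total H3K27me3 values were 1.18, 0.42, 0.97 and 1.07 in WT 57, WT 58, DKO 43 and DKO 53, the K27-K4 values were 3.60, 3.43, 3.47 and 3.00, and IgG–IgG was -1.58. With windows of 500 bp in place of 1.5 kb, 0 members had a total H3K27me3 region in WT or DKO or a K27-K4 region in DKO.

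The other 3 members with a WT K27-K4 region had low values in it. Rpl38 had 1.07, 1.23, 0.43 and 1.10 in WT 57, WT 58, DKO 43 and DKO 53, with IgG–IgG at 0.49. Rplp1 had 1.25, 1.12, 0.76 and 0.61, with IgG–IgG at 1.05, and Rps24, a small subunit protein, had 1.04, 1.00, 0.12 and 0.93, with IgG–IgG at 0.22. In WT 57 these K27-K4 values exceed IgG–IgG by less than 1.

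Among the 54 members, mean K27-K4 in the clones went with the other ChIPs of the same regions, as a description over genes that share libraries and are not independent. Pearson's r was 0.759 with total H3K27me3 and 0.659 without Rpl7, 0.575 with total H3K4me3 (0.659 without Rpl7) and 0.223 with IgG–IgG (0.501 without Rpl7). With region width it was 0.0155. Mean K4-K27 in the clones followed total H3K4me3 (0.86). In the E14 total H3K4me3 regions, which hold values of both cell sets for 50 members, mean K27-K4 in E14 cells followed that in the clones (0.792, and 0.729 without Rpl7).

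Values of the subunits were as follows. In WT clones 57 and 58 the median K4-K27 was 2.55 and 2.04 for the 30 large subunit genes, 2.45 and 2.02 for the 21 small subunit genes and 2.54 and 1.74 for the 3 stalk genes. Median K27-K4 was -0.14 and 0.09, -0.01 and -0.20, and -0.07 and -0.21 in the same order. Differences between the subunits were not tested.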

How the data were processed

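Processed values of 26 libraries were used, 9 from E14 cells and 17 from the clones, in 12 tables of regions. Per the submitters' processing notes and the study's methods, the authors trimmed reads (Trim Galore 0.6.6), aligned them to mm10 (BWA 0.7.13), marked duplicates (Picard 2.6.0) and quantified them in SeqMonk. The deposited values are log2 RPM per 1 kb of region, with duplicates kept, no IgG–IgG subtraction and 0 reads entered as 0.9. In each library the low values were whole reads within 0.05 reads (100%), which gave the depths and the reads per region. The authors called peaks with EPIC2 and tested counts with edgeR. By the study's methods, common regions came from intersecting peaks between replicates, and a union of peaks served its differential test. The processing notes also name MACS2, and the sources used here do not say which of these peak sets gave each table. Tables hold 32 columns of no sample of this series, which were not used.

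Comparisons used limma 3.58.1 in R 4.3.3 on the deposited log2 values (variance trend, robust), with only the libraries of the ChIPs and cells compared, and Benjamini-Hochberg adjustment over all regions of a table. Calls needed a log2 difference above 1 and an adjusted p under 0.05. E14 fits used 21970 regions of the E14 total H3K4me3 table, clone fits 31935 of the WT table. Steps were first tested on simulated data. Other calculations used Python 3.11.15, numpy 2.4.6, pandas 2.3.3 and matplotlib 3.10.9. The genes, lists and tests were chosen with earlier results of these data known. Named genes were taken from the 5 members with the largest difference in a called direction, or the highest and lowest 3 where none was called, and Rplp0, Rpl3, Rpl5, Rpl11, Rpl38, Rps6, Rps19 and Rpsa. Rpl7, Rpl38, Rplp1 and Rps24 are also described for the regions they hold, and Rpl7, Rpl10a and Rps20 were singled out after their values were seen.

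E14 replicates of the same number share a sequencing batch, and libraries of a clone share its cells, so numbers pair libraries. Deviations of paired K27-K4 and K4-K27 libraries from their group means correlated at 0.167 in E14, 0.00571 in WT and 0.0482 in DKO. These values do not show that both E14 orders shifted together between replicates. The median of replicate 2 minus replicate 1 was 1.44 in K4-K27 and 1.15 in K27-K4. The E14 order depends on this pairing, with 0 members called without the replicate block and 36 with it. Alternatives were other regions, median centring, a filter on low values, other variance settings, the replicate block, a 500 bp window and each library left out. The regions of the E14 total H3K4me3 table for clone comparisons and the test of WT clones against E14 cells were added after the data were seen.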

Additional observations from a re-analysis of the deposited data

Results flagged for a closer look

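The difference between K27-K4 and K4-K27 at ribosomal protein genes took opposite signs in the WT clones and in the E14 line, by a median of -3.99 in the tested difference of differences, lower at 50 of 50 members and called at 48. Over all regions the median was -2.15, and 21% were called lower. In the DKO clones the median was -2.49 in the same 50 regions, while both E14 replicates were positive at every member, and the difference between DKO clones and E14 cells was not tested. Batch and cells cannot be told apart in either case.

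Total H3K27me3 at the Rpl7 window, in regions that also hold the Rdh10 start site, lay above IgG–IgG by 2.75 in WT 57 and 1.99 in WT 58 in the WT region, and by 2.99 in DKO 43 and 3.24 in DKO 53 in the DKO region. It was singled out as a signal in tables that the comparisons did not use. The part of Rdh10 in these values was not tested, and the 1 IgG–IgG library came from WT 57. These regions were listed for total H3K27me3, so an excess over IgG–IgG was fixed by their selection, and the IgG–IgG values rest on 6 reads in the WT region and 4 in the DKO region.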

How the results depend on the processing

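The higher K4-K27 than K27-K4 at members of the clones kept its direction at every member in the fits run under each alternative. Within single clones it turned at 1 member, Rps15 in DKO 53 in the 45600 bp region of the E14 reChIP tables (K4-K27 1.24, K27-K4 1.35). The opposite difference in E14 cells kept its direction at the named members except where stated. Over the comparisons, under alternatives that kept all libraries 255 summary values stayed within the set margin and 37 moved more, and 1245 of the values of single named members kept direction and call, while 22 lost a call, 14 gained one and 21 changed sign. With a library left out, 507 kept both, 100 lost a call, 11 gained one and 70 changed sign. Most sign changes were DKO-minus-WT differences near 0. Total H3K27me3 rests on few reads per member, and 2 libraries per group and 1 IgG–IgG library per cell set limit all comparisons. The causes of the changes given here were not tested.

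With libraries centred on their medians, the E14 order had 2 members called (0.0364% of regions) and Rpl30 at -0.31. E14 K4-K27 against total H3K4me3 had 17 called lower (7.01% of regions, with 24.2% higher), K27-K4 against total H3K27me3 had 8 called (11.5% of regions) with a median of 0.62, and total H3K4me3 against total H3K27me3 had 16 called higher (11.7% of regions, with 24.5% lower) with a median of 0.81. The WT order had 30 called (14.3% of regions, with 17.1% higher) and a median of -1.08, the DKO order a median of -1.32, and WT clones against E14 cells 17 called (5.17% of regions, with 13.7% higher) and a median of -1.31. For DKO against WT in total H3K27me3, Rpl11 was at -0.052 and Rps19 at -0.082. With the replicate block the E14 order had 36 members called (14.8% of regions), the WT order 54 (29.3%) and WT clones against E14 cells 50 (53.3%), and no other call changed under the pairing.

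In the regions of the E14 K4-K27 or K27-K4 tables, Rps15 had 1.05 for K4-K27 against total H3K4me3. In the WT K27-K4 regions, which hold 4 members, 3 were called in the WT order (median -1.97; 3.36% of regions, with 6.48% higher) and 3 in the DKO order (3.44% of regions). DKO against WT had medians of 0.20 for total H3K27me3 and -0.44 for K27-K4, and Rpl38 was at -0.063 for K4-K27. Medians over IgG–IgG there were 3.83, 2.52, 3.49 and 2.98 for total H3K4me3 in WT 57, WT 58, DKO 43 and DKO 53, 3.26, 2.603, 3.31 and 2.80 for K4-K27 and 0.70, 0.76, -0.080 and 0.66 for K27-K4, with -2.58 for total H3K27me3 in WT 58. In the WT K4-K27 regions the medians over IgG–IgG were -2.80 and -2.39 for total H3K27me3 and -0.33 and -0.24 for K27-K4 in WT 57 and 58. Rplp0 was at -0.057 in the interaction and -0.059 in total H3K4me3 of DKO against WT, Rps19 at -0.097 in the latter, Rpl11 at -0.11 in total H3K27me3 and Rpsa at -0.026 in K4-K27. In the E14 total H3K4me3 regions Rplp0 was at -0.0032 in the interaction and -0.056 in total H3K4me3, Rpl9 at 0.053 there, and Rpl11 and Rps19 at -0.15 and -0.0057 in total H3K27me3. In the DKO total H3K4me3 regions Rpl9 was at 0.055 in total H3K4me3, Rpl28, Rpl11 and Rps19 at 0.24, -0.0061 and -0.13 in total H3K27me3, and Rpl38 at 0.12 in K27-K4. With windows of 500 bp, 0 members had a region in the WT and DKO total H3K27me3 tables and the DKO K27-K4 table.

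With each library left out in turn, the number of members called ranged from 0 to 49 for E14 K4-K27 lower than total H3K4me3 (0% to 54.5% of regions), from 0 to 50 for E14 K27-K4 against total H3K27me3 (0.0774% to 89% of regions), from 17 to 53 for the WT order (13.6% to 30.3%) and from 0 to 49 for WT clones against E14 cells (0% to 45.6%). The medians ranged from -2.61 to -2.03 in the WT order, from -4.93 to -3.10 in WT clones against E14 cells and from -0.52 to 0.096 in the interaction. They ranged from 0.73 to 2.67 in the E14 order and from -2.52 to -0.62 in E14 K4-K27 against total H3K4me3. For DKO against WT they ranged from -0.54 to 0.77 in total H3K4me3 and from -0.73 to 0.048 in total H3K27me3. In the reChIPs of DKO against WT they ranged from -0.20 to 0.42 in K4-K27 and from -0.20 to 0.12 in K27-K4. A group with 1 library left was assumed to vary like the others. In the E14 order the ranges were Rpl30 -0.26 to 1.53, Rps20 -0.039 to 2.20, and in E14 K4-K27 against total H3K4me3 Rpl7 -0.19 to 0.63. In the interaction they were Rps20 -0.32 to 1.06, Rpl12 -0.095 to 0.73, Rplp0 -0.25 to 0.69, Rpl5 -0.79 to 0.40, Rpl38 -0.65 to 0.021, Rps19 -0.79 to 0.14. For DKO against WT in total H3K4me3 they were Rpl13 -0.22 to 1.02, Rps7 -0.30 to 0.92, Rpl8 -0.41 to 0.98, Rps20 -1.14 to 0.28, Rpl5 -0.84 to 0.45, Rpl9 -0.66 to 0.62, Rplp0 -0.57 to 0.62, Rpl3 -0.37 to 0.77, Rpl11 -0.55 to 0.78, Rpl38 -0.53 to 0.78, Rps6 -0.69 to 0.78, Rps19 -0.55 to 0.69, Rpsa -0.48 to 0.77. In total H3K27me3 they were Rps23 -0.20 to 2.36, Rpsa -2.11 to 0.23, Rpl3 -0.46 to 0.034, Rpl5 -0.83 to 0.063, Rpl11 -0.55 to 0.65, Rpl38 -0.0091 to 0.23, Rps19 -0.36 to 0.40. In K4-K27 they were Rps20 -1.16 to 0.22, Rpl10a -0.83 to 0.12, Rplp0 -0.79 to 0.15, Rpl3 -0.15 to 0.50, Rpl11 -0.14 to 0.48, Rpl38 -0.30 to 0.36, Rps6 -0.065 to 0.40, Rps19 -0.058 to 0.44, Rpsa -0.30 to 0.41. In K27-K4 they were Rps27 -0.015 to 0.99, Rplp0 -0.27 to 0.067, Rpl5 -0.18 to 1.01, Rpl11 -0.94 to 0.13, Rpl38 -0.57 to 0.011, Rps19 -0.61 to 0.32.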
